A study of Caenorhabditis elegans with 20 samples.

Results

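The F-box B and C genes of Caenorhabditis elegans, named fbxb and fbxc, were described in gonadal cells and in whole animals of both sexes during the first larval stage. Members were all genes whose name in the deposited tables begins with fbxb or fbxc and a number, which gave 160 genes, 110 fbxb and 50 fbxc, of 19861 genes in all. Males carried tra-2(ar221), xol-1(y9) and the integrated array rdIs4, in which the ehn-3a promoter drives the fluorescent protein Venus in the gonadal precursors Z1 and Z4 and their descendants. At the restrictive temperature this tra-2 allele turns XX animals into pseudomales, so that no group held XO males. Hermaphrodite gonadal cells and whole hermaphrodites at 15 hr of feeding carried xol-1(y9) and rdIs4, and whole hermaphrodites at 9.5 hr carried xol-1(y9) without the array. Gonadal cells were Z1 and Z4 at 9.5 hr and their daughters at 15 hr, sorted by Venus, and whole animals were dissociated cells taken before sorting. Large populations of larvae were pooled for each of the 20 samples, 3 in each of 4 groups at 9.5 hr and 2 in each of 4 groups at 15 hr.

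F-box proteins are the interchangeable receptors of SCF ubiquitin ligases. Their F-box binds a Skp1-related adapter, which sits on the scaffold cullin CUL-1, and the rest of the protein binds a substrate that the complex then marks with ubiquitin for destruction. Nematodes carry F-box families that have expanded greatly, with many copies in tandem arrays, and the substrates of most fbxb and fbxc proteins are not known. In the early gonad, Z1 and Z4 give rise to all somatic tissues of the gonad, and their first division precedes the visible difference between the sexes.

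The files hold 1 FPKM value per gene and group, the authors' value over the samples of that group. FPKM counts fragments per length of transcript and per number mapped in the library, so that levels can be compared between genes. No replicate error can be taken from pooled values, and the error given here, with n = 4, is the spread of a ratio over the 4 pairs of groups that combine sex and time. The p-values therefore measure how alike the ratio was over sexes and times, not the spread between samples of a group. Ratios are on log2(FPKM + 1), which understates changes of low genes, and levels are compared only within a time because each time was processed alone. At 15 hr, 1 read on a gene of 1 kb was worth 0.107 and 0.0805 FPKM in gonadal cells of males and hermaphrodites, and 0.108 and 0.121 FPKM in whole males and hermaphrodites. The lowest values below therefore rest on a few reads. Copies of similar sequence could share short reads, which would make the level of any single copy uncertain. Identity between copies was not computed.

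The sort was checked with marker genes, not all of which are independent of it. The ehn-3a promoter drove the Venus used for sorting. The paper chose ckb-3 and pes-1 for reporters from genes enriched in these same data, and both reporters were expressed in the gonadal precursors. All 6 gonadal precursor markers that could be tested were called higher in gonadal cells. The FPKM sum of the 7 listed was 308 to 543 in gonadal cells and 50.7 to 58.2 in whole animals. hnd-1, too low to be tested, went the other way in every pair. It had 1.12 and 0.161 FPKM in male and hermaphrodite gonadal cells at 9.5 hr, against 1.48 and 2.30 FPKM in whole animals. At 15 hr it had 0 and 0.265 FPKM, against 0.850 and 0.403 FPKM. ehn-3, though called higher, was lower in gonadal cells of hermaphrodites at 15 hr, at 0.287 against 0.592 FPKM. Most markers of other tissues were lower but not at 0. Body wall muscle markers summed to 184 to 405 FPKM in gonadal cells and 1008 to 1158 FPKM in whole animals, with 5 of 5 lower. In male and hermaphrodite gonadal cells the muscle sums were 295 and 205 FPKM at 9.5 hr and 405 and 184 FPKM at 15 hr. Neuronal markers summed to 389 to 512 FPKM against 1205 to 1238 FPKM, with 6 of 6 lower. Coelomocyte markers summed to 16.9 to 31 FPKM against 233 to 359 FPKM, with 2 of 2 lower. Intestinal markers summed to 82.2 to 176 FPKM against 300.1 to 402 FPKM, with 4 of 5 lower, hypodermal markers to 16 to 519 FPKM against 71.4 to 969 FPKM, with 5 of 5 lower, and germline markers to 120 to 246 FPKM against 129 to 276 FPKM, with 4 of 5 lower. Most of the germline sum in each gonadal group was mex-3, the 1 tested germline marker not called lower. In male and hermaphrodite gonadal cells mex-3 had 129 and 115 FPKM at 9.5 hr, against 65.7 and 77 FPKM in whole animals. Its values were 199 and 89 FPKM at 15 hr, against 156 and 115 FPKM. The 4 germline markers called lower had log2 ratios of -2.72 to -1.02. The 3 pharyngeal markers in the files summed to 82.7 to 205 FPKM against 229 to 350 FPKM. Of these 3, myo-2 and tnt-4 were lower and ceh-22 higher. The paper lists ceh-22 among genes already known to be expressed in the gonadal precursors. It had 154 and 141 FPKM in male and hermaphrodite gonadal cells at 15 hr, which was most of the pharyngeal sum there. Of all these markers, hnd-1 alone was listed at 0 in a gonadal group, male cells at 15 hr. What remaining cells of these tissues add to the values of members in gonadal cells was not tested. In bulk RNA, fewer cells of a type and less RNA per cell cannot be told apart.

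Most members were hardly detected. Of the 160, 5 were listed at 0 in all 8 groups (fbxc-1, fbxc-3, fbxc-9, fbxc-11 and fbxc-12), all within a run of 6 fbxc genes on chromosome IV, and 102 had a mean over the groups above 0 and below 1 FPKM. A mean of at least 1 FPKM was the limit for testing, and 53 members passed it (33.1%), 30 fbxb (27.3%) and 23 fbxc (46%), against 76.6% of all genes. The highest value of any member that did not pass was 2.89 FPKM, for fbxc-55 in whole hermaphrodites at 9.5 hr. In the 4 comparisons of gonadal cells with whole animals, the authors' software judged the reads sufficient for a test for 21 to 27 members, 13.1% to 16.9% of them, against 54.4% to 59.0% of all genes. Of 159 members found by name in RefSeq (assembly WBcel235), 12 were annotated as pseudogenes, and fbxb-80, fbxb-86, fbxc-41 and fbxc-57 among these passed the limit. fbxc-56 was not matched.

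As a sum, the families were higher in gonadal cells, while the median member, like the median of all genes, was lower. At 9.5 hr the members summed to 748 and 730 FPKM in male and hermaphrodite gonadal cells, against 371 and 420 FPKM in whole males and hermaphrodites. At 15 hr they summed to 598 and 632 FPKM in gonadal cells, against 322 and 281 FPKM in whole animals. The gonadal sum was thus 2.01, 1.74, 1.86 and 2.25 times the whole-animal sum in 9.5 hr males, 9.5 hr hermaphrodites, 15 hr males and 15 hr hermaphrodites. Without fbxc-40 and fbxc-52 the ratios were 1.61, 1.42, 1.37 and 1.70, and the 197 genes of the F-box A family, fbxa, gave 1.90, 1.55, 1.48 and 1.69. The median of the 160 members was 0.554 and 0.284 FPKM in male and hermaphrodite gonadal cells at 9.5 hr, against 1.03 and 1.37 FPKM in whole animals, and 0.341 and 0.154 FPKM at 15 hr, against 0.429 and 0.388 FPKM. The median of all genes was 3.49 to 4.44 FPKM in the gonadal groups and 9.03 to 9.91 FPKM in the whole-animal groups. Members at 1 FPKM or more numbered 44 and 50 in gonadal cells at 9.5 hr, against 83 and 112 in whole males and hermaphrodites. At 15 hr they numbered 51 and 33 in gonadal cells, against 39 and 46 in whole animals. The 112 members stood in the group without the array, in which 17947 of all genes also reached 1 FPKM, against 12506 to 16329 in the other 7 groups.

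A few genes carried the family sum in gonadal cells. The 10 members with the highest level in each group made up 67.0% to 76.4% of the sum in the 4 gonadal groups and 35.1% to 54.4% in the 4 whole-animal groups. fbxc genes held 71.2% to 79.5% of the sum in gonadal cells and 50.3% to 55.5% in whole animals. fbxc-40 and fbxc-52 were the 2 highest members in all 4 gonadal groups and together held 25.7% to 33.5% of the sum, against 8.49% to 10.3% in whole animals.

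The plot of the 10 members with the highest mean level shows every group.

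**Figure D1:**
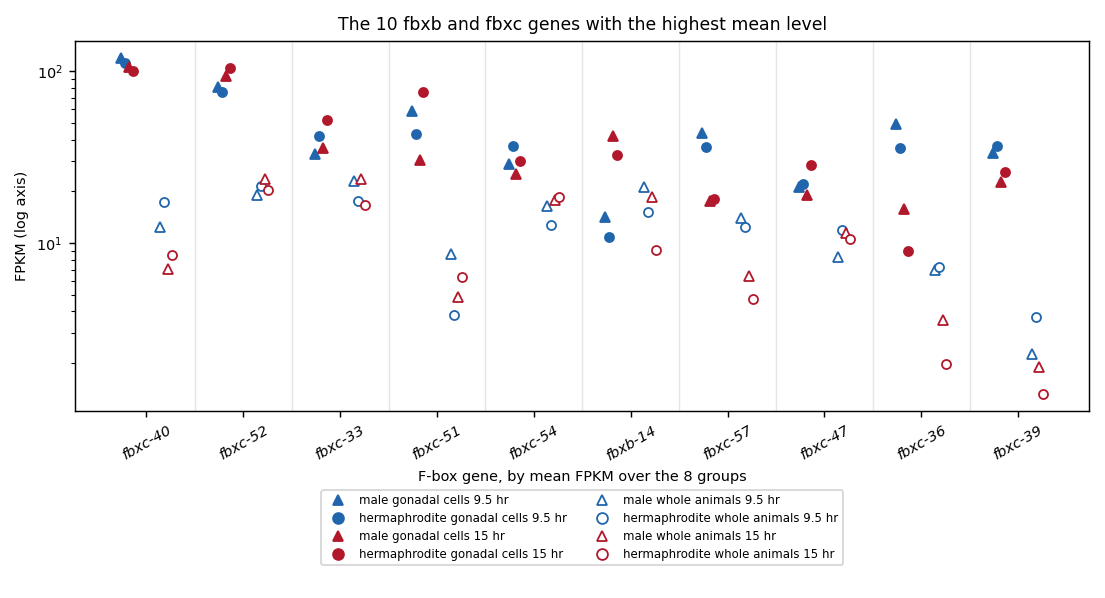
FPKM on a log axis of the 10 fbxb and fbxc genes with the highest mean over the 8 groups, with filled symbols for gonadal cells at the left and open symbols for whole animals at the right of each gene, triangles for males and circles for hermaphrodites, blue for 9.5 hr and red for 15 hr. The 4 filled symbols of fbxc-40 sit between 100.6 and 120 FPKM and the 4 open ones between 7.0 and 17.3 FPKM.

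fbxc-40, the member with the highest mean (60.5 FPKM), lies on chromosome II at 986010 to 988672 in ce10. It had 120 and 112 FPKM in male and hermaphrodite gonadal cells at 9.5 hr, against 12.4 and 17.3 FPKM in whole males and hermaphrodites. At 15 hr it had 106 and 100.6 FPKM in gonadal cells, against 7.0 and 8.55 FPKM in whole animals. At each time both gonadal values lay above both whole-animal values, by 9.69, 6.47, 15.2 and 11.8 times within the pairs, and the sexes differed little. fbxc-52, at 3717141 to 3719701 on chromosome II, was second with a mean of 54.9 FPKM. It had 80.9 and 75.6 FPKM in male and hermaphrodite gonadal cells at 9.5 hr, against 19.1 and 21.5 FPKM in whole animals, and 93.9 and 104 FPKM at 15 hr, against 23.7 and 20.3 FPKM. It was also the highest or second highest member in 3 of 4 whole-animal groups, and its gonadal level was 3.52 to 5.15 times that of whole animals. fbxc-33, fbxc-54 and fbxc-47 were also high but less uneven, with gonadal ratios of 1.44 to 3.11, 1.43 to 2.89 and 1.68 to 2.71 over the pairs.

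Gonadal cells and whole animals were compared for each gene to find transcripts enriched in the gonadal precursors. limma was fitted to log2(FPKM + 1) of all 15213 genes with a mean of at least 1 FPKM, with each combination of sex and time as a block, and p-values were adjusted by Benjamini-Hochberg over all of them. Of the 53 members tested, 21 were higher in gonadal cells (39.6%), against 30.3% of all genes, and 12 were lower (22.6%), against 38.9% of all genes. With a change of at least 2-fold required as well, 16 were higher (30.2%, against 11.8% of all genes) and 9 were lower (17%, against 34.2%). The median log2 ratio was 0.36 over the members and -0.14 over all genes. Gonadal groups had lower medians over all genes, and centring each group on its median moved these medians to 1.04 and 0.53. It gave 30 members higher and 7 lower, beside 46.6% and 25.5% of all genes, so that higher calls made up 64.7% of all calls across genes, against 43.8% without centring. The excess of higher calls also rested on the limit of 1 FPKM. With no filter on low values, 22 of 155 members were higher (14.2%), against 23% of all genes, 28 were lower (18.1%), against 35.0% of all genes, and the medians were -0.31 over the members and -0.33 over all genes.

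The higher calls lay mostly among the fbxc genes. Of 23 fbxc genes tested, 14 were higher (60.9%) and 4 lower, with a median log2 ratio of 1.03. Of 30 fbxb genes tested, 7 were higher (23.3%) and 8 lower, with a median of 0.15. Beside them stood 30.3% of all genes higher and 38.9% lower. Of the fbxa family, 36 of 106 were higher (34.0%) and 39 lower (36.8%), with a median of 0.01. With at least 2-fold required as well, 28 fbxa genes were higher (26.4%) and 31 lower (29.2%), beside 30.2% and 17% of the members. With a mean of at least 5 FPKM, 32 of 46 fbxa genes were higher, with a median of 1.06. Under that limit 15 of 23 members were higher (65.2%), with a median of 1.03, and 38.9% of all genes. With no filter on low values, 14 of 45 fbxc genes were higher (31.1%) and 7 lower, 8 of 110 fbxb genes were higher (7.27%) and 21 lower, and both medians turned negative, at -0.19 for fbxc and -0.31 for fbxb. The difference between the families was not tested.

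In 5 members the ratio on FPKM + 1 was at least 4-fold in all 4 pairs (9.43% of those tested, against 0.769% of all genes): fbxc-40, fbxc-39, fbxb-45, fbxc-42 and fbxc-51. Their log2 ratios were 3.24 ± 0.217 (SE, n = 4 pairs; adjusted p = 0.000173, limma), 3.24 ± 0.251, 3.15 ± 0.318, 3.02 ± 0.248 and 2.91 ± 0.247. The adjusted p of the other 4 was at most 0.000264, and the 5 ranked 57 to 90 among the 15213 ratios. On plain FPKM fbxc-36 was also over 4-fold in every pair, at 4.43 to 7.03 times. fbxc-39 had 33.2 and 36.5 FPKM in male and hermaphrodite gonadal cells at 9.5 hr, against 2.24 and 3.68 FPKM in whole animals, and 22.5 and 25.9 FPKM at 15 hr, against 1.90 and 1.32 FPKM. fbxc-42 had 11.4 and 17.1 FPKM in gonadal cells at 9.5 hr, against 0.675 and 1.15 FPKM in whole animals, and 10.5 and 13.2 FPKM at 15 hr, against 0.276 and 0.833 FPKM. Both thus followed fbxc-40 at a lower level, and in whole animals fbxc-42 was close to the value of a few reads.

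fbxb-45, at 1042976 to 1044032 on chromosome II, was the one fbxb gene of these 5. It had 44.6 and 43.3 FPKM in male and hermaphrodite gonadal cells at 9.5 hr, against 2.26 and 2.78 FPKM in whole animals, and 9.57 and 6.36 FPKM at 15 hr, against 0.675 and 0.24 FPKM. Its gonadal level was above that of whole animals in both sexes at both times. fbxc-51, at 868821 to 871696 on chromosome II, had 58.8 and 43.2 FPKM in gonadal cells at 9.5 hr, against 8.59 and 3.81 FPKM in whole males and hermaphrodites. At 15 hr it had 30.3 FPKM in gonadal cells of males and 75.2 FPKM in those of hermaphrodites, against 4.86 and 6.34 FPKM in whole animals. Here the sexes stood 2.48 times apart in gonadal cells at 15 hr, with the hermaphrodite value the higher.

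The next members by ratio were higher in every pair but by less. fbxc-36 had a log2 ratio of 2.11 ± 0.262 (adjusted p = 0.000512, limma), with 49.1 and 35.8 FPKM in male and hermaphrodite gonadal cells at 9.5 hr, against 6.98 and 7.26 FPKM in whole animals, and 15.8 and 8.96 FPKM at 15 hr, against 3.57 and 1.97 FPKM. fbxc-52 had a ratio of 2.01 ± 0.161, fbxc-50 of 1.64 ± 0.340 and fbxc-57 of 1.53 ± 0.215. fbxc-57 is annotated as a pseudogene, yet its transcript was at 43.6 and 36 FPKM in gonadal cells at 9.5 hr, against 13.9 and 12.4 FPKM in whole animals, and at 17.4 and 18.1 FPKM at 15 hr, against 6.39 and 4.71 FPKM. fbxb-20, fbxb-3 and fbxc-14 had ratios of 1.26 ± 0.297, 1.23 ± 0.347 and 1.14 ± 0.265, all at levels below 10 FPKM. The remaining higher calls had ratios of 0.76 to 1.14, and those of the high genes fbxc-47, fbxc-33 and fbxc-54 were 1.03, 0.97 and 0.85. Without each pair in turn, 13 of the 21 higher calls and 9 of the 12 lower calls were kept every time. Those lost at least once were fbxb-3, fbxb-16, fbxb-24, fbxb-26, fbxb-79, fbxc-23, fbxc-54 and fbxc-56 among the higher and fbxb-86, fbxb-114 and fbxc-41 among the lower, and without the pair of 9.5 hr hermaphrodites, whose whole animals lacked the array, 15 members were higher.

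The means of the 12 lower members over the 8 groups were at most 8.45 FPKM, that of fbxb-88. In fbxc-43, the member with the most negative ratio (-2.43 ± 0.334, adjusted p = 0.000741, limma), gonadal cells of males and hermaphrodites had 1.85 and 1.67 FPKM at 9.5 hr, against 6.43 and 17 FPKM in whole animals, and 1.04 and 0.992 FPKM at 15 hr, against 13.1 and 12.9 FPKM. fbxb-65 (-2.39 ± 0.265) had 0.606 and 0.772 FPKM in gonadal cells at 9.5 hr, against 11.2 and 7.11 FPKM in whole animals, and 1.03 and 0.0883 FPKM at 15 hr, against 7.60 and 4.66 FPKM. On FPKM + 1 it was the only member at least 4-fold lower in all 4 pairs (1.89% of those tested, against 6.38% of all genes), and on plain FPKM fbxb-88, fbxc-20 and fbxb-95 were so too. fbxb-88 (-2.23 ± 0.265) had 1.64 and 1.42 FPKM in gonadal cells at 9.5 hr, against 10.5 and 8.56 FPKM in whole animals. At 15 hr it had 4.73 and 1.46 FPKM in gonadal cells, against 24.5 and 14.8 FPKM in whole animals, and was the highest member of all in whole males of that time. fbxc-20, fbxb-66, fbxb-115 and fbxc-53 had ratios of -1.83 to -1.48, fbxb-70 and fbxb-95 of -1.38 and -1.36, and fbxb-114, fbxc-41 and fbxb-86 of -0.92, -0.91 and -0.85. For fbxb-114, fbxb-70, fbxb-86, fbxb-95 and fbxc-41 the call was lost when each group was centred on its median.

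**Figure D2:**
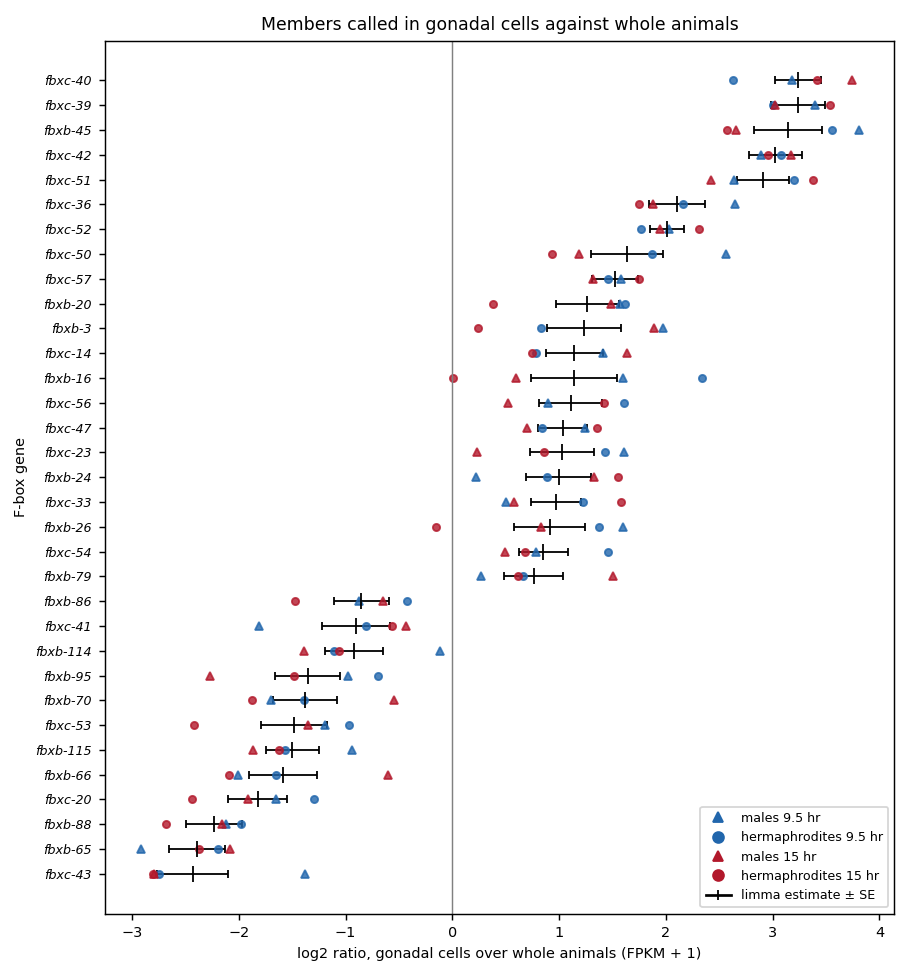
Log2 ratio of gonadal cells over whole animals on FPKM + 1 for the 33 members called, with 1 symbol for each pair of groups (triangles males, circles hermaphrodites, blue 9.5 hr, red 15 hr) and a black bar for the limma estimate ± SE. The estimates run between -2.43 for fbxc-43 and 3.24 for fbxc-40, and 1 pair of the 21 higher members lies below 0, that of fbxb-26 in 15 hr hermaphrodites.

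Position was examined because members lie in arrays. Chromosome II held 102 of the 160 members and 40 of the 50 fbxc genes. Of 30 members tested there, 17 were higher in gonadal cells (56.7%) and 6 lower (20%), against 32.6% and 36.5% of all 2552 genes tested on that chromosome. Of 23 members tested on the other chromosomes, 4 were higher (17.4%) and 6 lower (26.1%), against 29.9% and 39.4% of all genes tested there. Of the fbxc genes tested, only fbxc-45 and fbxc-47 lay outside chromosome II. The split by chromosome thus overlaps that by family, and the 2 were not separated. With members joined into a run where the next began within 20 kb, 123 members lay in 25 runs of 2 or more. The largest run held 25 members, 22 fbxc followed by 3 fbxb, in 93.9 kb at 907542 to 1001451 of chromosome II in ce10. Of these, 9 were tested, 7 were higher (fbxc-33, fbxc-36, fbxc-57, fbxc-14, fbxc-40, fbxc-39 and fbxc-42), fbxc-41 was lower and fbxc-32 was not called. The run summed to 310 and 297 FPKM in male and hermaphrodite gonadal cells at 9.5 hr, against 90.8 and 95.6 FPKM in whole animals, and to 222 and 224 FPKM at 15 hr, against 52.1 and 43.4 FPKM. It thus held 35.5% to 41.5% of the family sum in gonadal cells and 15.5% to 24.5% in whole animals. Among 11 genes of other families inside the run, 3 were tested and 2 were higher.

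**Figure D3:**
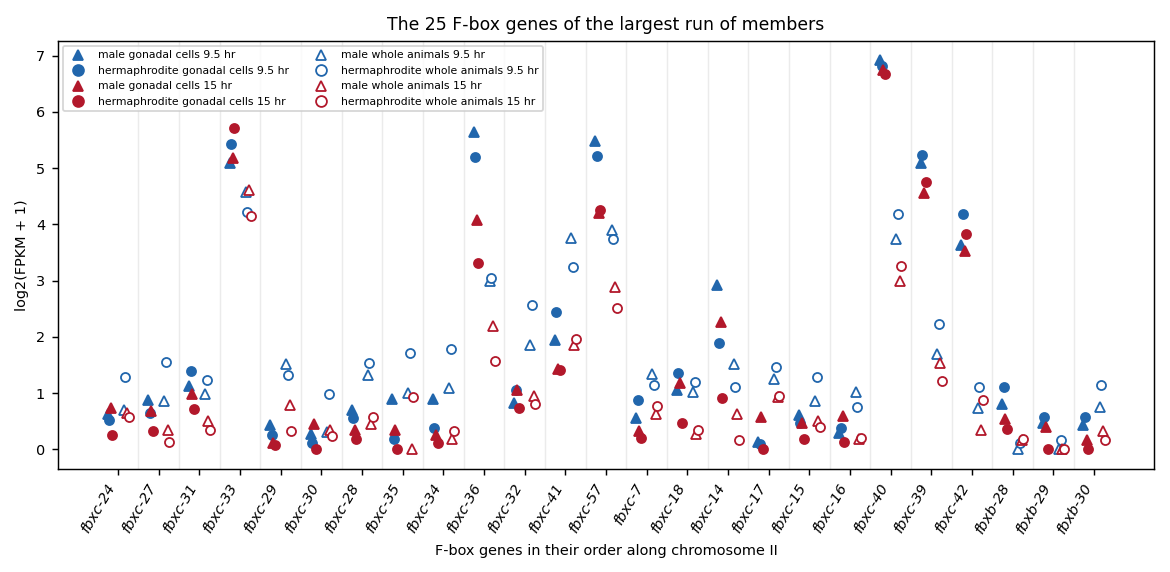
Log2(FPKM + 1) of the 25 members of the largest run, in their order along chromosome II, with filled symbols for gonadal cells at the left and open symbols for whole animals at the right of each gene (triangles males, circles hermaphrodites, blue 9.5 hr, red 15 hr). fbxc-40 reaches 120 FPKM in male gonadal cells at 9.5 hr, while fbxc-16, the member before it in the run, stays at or below 1.03 FPKM in all groups.

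Neighbouring members did not all share a call. fbxc-40, fbxc-39 and fbxc-42 follow each other on the plus strand with 71 and 575 bases between them, and all 3 were among the 5 members with the largest ratios. The genes on either side of them, srh-274 before and fbxb-28 after, were at 0 to 0.902 FPKM and 0 to 1.15 FPKM over the 8 groups. fbxb-28 had 0.741 and 1.15 FPKM in male and hermaphrodite gonadal cells at 9.5 hr, against 0 and 0.0861 FPKM in whole animals. At 15 hr it had 0.453 and 0.288 FPKM, against 0.130 and 0.136 FPKM. Too low to be tested under the limit of 1 FPKM, fbxb-28 was called higher with no filter. Reads that run from one gene of the trio into the next could not be told apart from separate transcripts in gene totals. fbxb-45 lies 666 bases from fbxb-41, which had 2.53 and 1.52 FPKM in male and hermaphrodite gonadal cells at 9.5 hr, against 0.998 and 1.51 FPKM in whole animals, and was not called. Of 13 pairs of neighbouring members in which both were tested, both were higher in 4, both lower in none, and the calls were opposite in 2. The 4 pairs lay on chromosome II, where 17 of 30 members tested were higher, and the trio alone gave 2 of them. The share over neighbouring genes of all kinds was not computed, so whether neighbours were alike more often than other genes was not tested. The opposite pairs were fbxc-52 and fbxc-53, 4158 bases apart, and fbxc-57 and fbxc-41, 2339 bases apart. fbxc-53 had 0.977 and 0.956 FPKM in gonadal cells at 9.5 hr, against 3.52 and 2.83 FPKM in whole animals, and 0.908 and 0.235 FPKM at 15 hr, against 3.87 and 5.62 FPKM. Outside the trio, both were higher in fbxb-20 and fbxb-16 and in fbxc-23 and fbxc-56, pairs that were picked out after their values were seen.

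Whether the gonadal ratio differed between the times was tested as an interaction in the same limma model. No member passed the adjusted threshold in either direction, beside 0.749% of all genes with a higher ratio at 15 hr and 1.09% with a lower one. Unadjusted, 9 of 53 members (17%) and 3329 of all genes (21.9%) had a p under 0.05. On simulated data the interaction test recovered 5% of log2 shifts of 1 and 60% of shifts of 2. fbxb-7 (chromosome V, 17377397 to 17379201) had the largest change, a log2 ratio higher by 3.40 ± 0.703 at 15 hr (adjusted p = 0.0678, limma). At 15 hr it had 24.4 FPKM in gonadal cells of males and 4.85 FPKM in those of hermaphrodites, against 1.09 and 0.448 FPKM in whole animals, and at 9.5 hr 0.958 and 0.104 FPKM in gonadal cells, against 0.918 and 1.55 FPKM in whole animals. fbxb-14, a gene with a mean of 20.4 FPKM, had a ratio higher by 1.93 ± 0.361 at 15 hr (adjusted p = 0.0578, limma). Its gonadal cells of males and hermaphrodites had 42.0 and 32.3 FPKM at 15 hr, against 18.6 and 9.04 FPKM in whole animals, and 14.2 and 10.8 FPKM at 9.5 hr, against 21.2 and 15.2 FPKM. Both genes stood above whole animals at 15 hr in both sexes, and fbxb-14 stood below them at 9.5 hr. Both missed the threshold as fitted and passed it with each group centred on its median, at 3.69 (adjusted p = 0.0348, limma) and 2.22 (adjusted p = 0.0358, limma). With a pseudocount of 5 FPKM, fbxb-14 and, in the other direction, fbxb-45 passed, at 1.60 and -1.46. For fbxc-40 the ratio at 15 hr was higher by 0.68 ± 0.298 (adjusted p = 0.245, limma). The paper reports an unannotated fbxc-40 isoform in Z1 and Z4 and a different unannotated isoform in their daughters. Gene totals cannot show such a change of isoform.

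**Figure D4:**
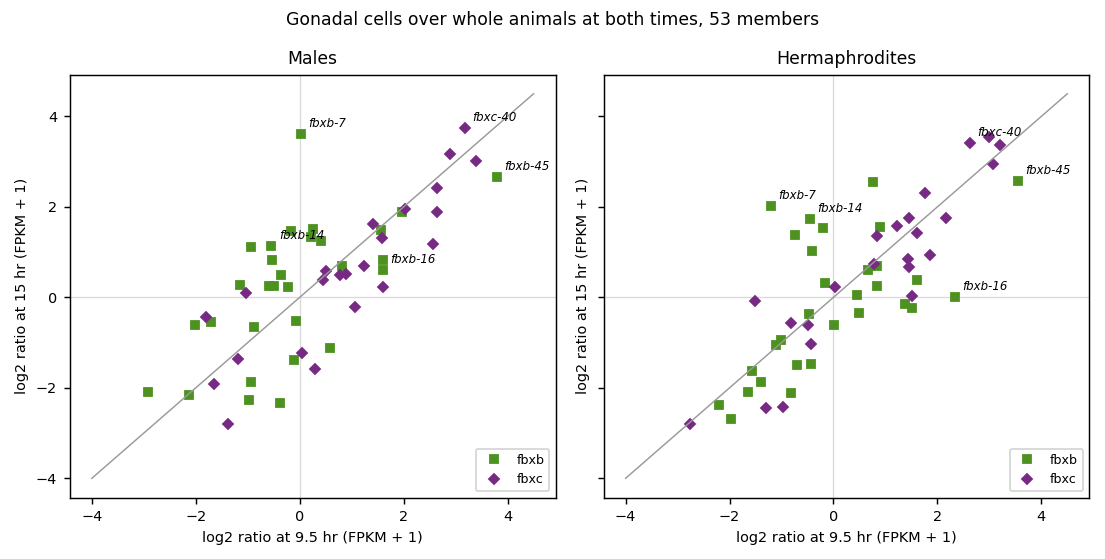
Log2 ratio of gonadal cells over whole animals on FPKM + 1 at 15 hr (vertical) against 9.5 hr (horizontal) for the 53 members tested, males at the left and hermaphrodites at the right, with squares for fbxb, diamonds for fbxc and a line of equal ratios. fbxb-7 and fbxb-14 lie above the line in both sexes and fbxb-45 below it, while fbxc-40 is among the members near its upper end.

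The sexes were compared in the same way, with males over hermaphrodites. The tra-2 allele and male development cannot be told apart here. No member and no gene passed the adjusted threshold (0 of 15213 genes, 0% in either direction, limma), and 6 of 53 members and 1373 of all genes had an unadjusted p under 0.05. On simulated data this test recovered 54% of log2 shifts of 1 and 98.5% of shifts of 2, set alike in all 4 pairs. A sex difference in only 1 source or time counts as error here. The paper, which compared the sexes within each source and time, reported sex-biased transcripts, most of them in gonadal cells at 15 hr. The smallest adjusted p of a member was 0.524. The median log2 ratio was -0.01 over the members and 0.01 over all genes. fbxc-20 (0.77, unadjusted p = 0.0098, limma) and fbxc-14 (0.82, unadjusted p = 0.0109, limma) were above the hermaphrodite value in 4 of 4 male groups. fbxc-14 had 6.60 FPKM in gonadal cells of males and 2.71 FPKM in those of hermaphrodites at 9.5 hr and 3.82 and 0.889 FPKM at 15 hr. In whole animals fbxc-14 had 1.86 FPKM in males and 1.15 FPKM in hermaphrodites at 9.5 hr, and 0.556 and 0.126 FPKM at 15 hr. The test of whether the gonadal ratio differed between males and hermaphrodites also called no member and no gene (0% in either direction, limma), with 2 members, fbxb-72 and fbxb-3, and 427 genes at an unadjusted p under 0.05. On simulated data that test recovered 2% of log2 shifts of 1 and 31.5% of shifts of 2, so most such differences would be missed.

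Within a single time, 1 value per group allows no test, and members at least 4-fold apart on FPKM + 1 were counted. In gonadal cells at 15 hr, fbxb-7 and fbxb-72 were higher in males (3.77% of those tested, against 1.24% of all genes), and fbxb-101 was lower in males (1.89%, against 0.986%). fbxb-72 had 6.62 FPKM in gonadal cells of males and 0.660 FPKM in those of hermaphrodites, and 2.23 FPKM in whole males against 6.19 FPKM in whole hermaphrodites. The sexes thus stood in opposite order in the 2 sources. fbxb-101 had 1.33 FPKM in gonadal cells of males and 13.3 FPKM in those of hermaphrodites, and 0.997 FPKM in whole males against 1.45 FPKM in whole hermaphrodites. At 9.5 hr the same 2 genes were closer, with 10.4 and 6.34 FPKM for fbxb-72 and 3.71 and 9.0 FPKM for fbxb-101 in male and hermaphrodite gonadal cells. In gonadal cells at 9.5 hr no member was 4-fold apart, beside 0.401% of all genes higher and 0.256% lower in males. In whole animals no member was either, beside 0.401% higher and 0.5% lower at 9.5 hr and 0.23% and 0.46% at 15 hr. The number past 4-fold depended on the pseudocount, with 7 members higher and 2 lower in males in gonadal cells at 15 hr for a pseudocount of 0.1 FPKM and none for 5 FPKM.

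**Figure D5:**
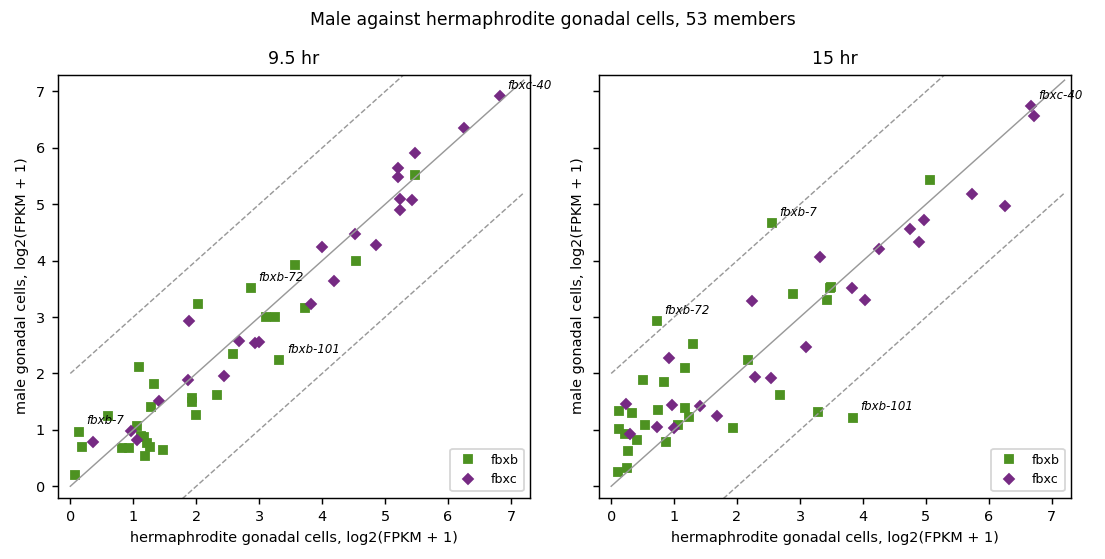
Log2(FPKM + 1) in male (vertical) against hermaphrodite (horizontal) gonadal cells at 9.5 hr and at 15 hr for the 53 members tested, squares fbxb and diamonds fbxc, with a solid line of equal values and dashed lines at 4-fold. No member lies outside the dashed lines at 9.5 hr, and fbxb-7, fbxb-72 and fbxb-101 do at 15 hr.

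Skp1-related adapters, cullins and cullin regulators were read beside the members. The list of cullins covers the whole family, and CUL-2 to CUL-5 form ligases that use receptors other than F-box proteins. Of 16 cullins and partner genes (RING proteins, the cullin modifier NED-8, its exchange factor CAND-1 and COP9 signalosome subunits), 15 were higher in gonadal cells, beside 30.3% of all genes, with a median log2 ratio of 0.66, and ned-8 was not called. The largest ratio was that of the cullin cul-6, 2.17 ± 0.273 (adjusted p = 0.000529, limma), with 17.7 and 25.5 FPKM in male and hermaphrodite gonadal cells at 9.5 hr, against 4.48 and 6.70 FPKM in whole animals, and 20.3 and 39.0 FPKM at 15 hr, against 3.06 and 4.96 FPKM. The next were cul-4, csn-1 and csn-5, at 0.87, 0.86 and 0.81. Of 15 Skp1-related genes tested, 5 were higher, a share near that of all genes, skr-16 (1.36), skr-3 (0.61), skr-18 (0.61) and skr-19 (0.56) with the largest ratios, and skr-10 (-2.51), skr-2 (-1.43) and skr-5 (-1.08) were lower. Of 7 other F-box genes in the files, lin-23, which acts in cell cycle exit, was higher (0.58), and ftr-1 (-2.07), fog-2 (-1.22) and dre-1 (-0.53, or 0.15 with each group centred on its median) were lower. fog-2 promotes spermatogenesis in the hermaphrodite germline, and dre-1 acts in developmental timing. With each group centred on its median, 16 of 16 cullins and partners and 10 of 15 Skp1-related genes were higher, beside 46.6% of all genes, 2 Skp1-related genes were lower, and 3 of the other F-box genes were higher and 1 lower.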

How the data were processed

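RNA was measured in sorted gonadal cells and unsorted cells of whole animals, 20 samples in 8 groups by source, sex and time. The authors purified RNA from TRIzol, depleted ribosomal RNA, made TruSeq libraries without poly-A selection, mapped short single-end reads to ce10 with TopHat 1.4.1 and ran Cuffdiff 2.1.1 for each time alone. CASAVA 1.8 and Picard 1.56 are also named in the submitters' processing notes. The deposited values used are FPKM, 1 per gene and group, as pooled by the authors over the samples of that group. How reads with several matches were shared between copies, and whether strand was used, are not given in the sources used here. The deposited tables also hold the authors' log2 fold changes, test statistics, p-values and q-values, which were not used.

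Members and lists were chosen with earlier results of these data known. Genes with a mean of at least 1 FPKM over the 8 groups were fitted with limma 3.58.1 (R 4.3.3) on log2(FPKM + 1), with a mean-variance trend, two-sided tests and Benjamini-Hochberg adjustment over all genes at 0.05. The 4 tests were gonadal cells against whole animals (block: sex and time), males against hermaphrodites (block: source and time), and the change of the gonadal ratio with time and with sex. Residual degrees of freedom were 3, and 2 for the interactions. The fits were tested on simulated data. Tables were handled in Python 3.11.15 with pandas 2.3.3. The value of 1 read at 15 hr was taken from the steps between FPKM values, multiplied by transcript length, of 10676 genes with 1 transcript. These steps were not resolved at 9.5 hr, where depth is unknown.

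Genes named were fbxc-40, the 10 members with the highest mean FPKM, up to 12 called members with the largest gonadal ratio in each direction, members called by another test, members at least 4-fold apart between the sexes in gonadal cells, and up to 4 called genes in each direction of the other lists. Other genes named were chosen after their values were seen. Alternatives were pseudocounts of 0.1 and 5 FPKM, no filter, a mean of at least 5 FPKM, centring of each group on its median, limma without the trend, leaving out each pair, and, for the sexes, 2-fold. Requiring at least 2-fold in the gonadal comparison was added after the data were seen. Positions are those of the deposited tables on ce10, given 1-based, strands come from the Ensembl annotation of WBcel235, and pseudogene annotation comes from RefSeq on the same assembly.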

Additional observations from a re-analysis of the deposited data

How the results depend on the processing

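No paired analysis was possible because the deposited values are pooled over the samples of a group and carry no replicate numbers. Of 352 alternative values for 37 members named by the rule, 316 kept their side of the threshold, 32 were no longer called, 4 became called and 0 turned direction. The number of members higher in gonadal cells (21) stayed within 1.5 times under every alternative, between 15 and 19 without each pair, and the number lower (12) was 28 with no filter, 2 with a mean of at least 5 FPKM, where fewer members are tested, 7 with each group centred, and 9 to 11 without each pair. Over all genes, centring gave 7095 higher and 3875 lower, the 2-fold rule added after the data were seen gave 1791 higher, and a mean of at least 5 FPKM gave 3851 lower. For the change of the gonadal ratio with time, a pseudocount of 5 FPKM called 1 member higher and 1 lower at 15 hr, and centring called 2 higher. Over all genes that test called 51 higher and 85 lower with a pseudocount of 0.1 FPKM, 315 and 552 with 5 FPKM, 53 and 85 with no filter, 221 and 271 with a mean of at least 5 FPKM, 0 and 0 without the trend, 528 higher with centring, and 10 to 43 higher and 19 to 117 lower without each pair (10 and 19 without 15 hr hermaphrodites). For the change of the ratio with sex, 0 to 94 genes were higher and 0 to 8 lower without each pair, the most without 9.5 hr males. Between the sexes in gonadal cells at 15 hr, members past the fold numbered 7 higher and 2 lower in males with a pseudocount of 0.1 FPKM, 0 and 0 with 5 FPKM, 8 and 4 at 2-fold, and 1 and 2 with centring. At 9.5 hr they numbered 1 higher with a pseudocount of 0.1 FPKM and 3 higher and 1 lower at 2-fold, and in whole animals at 2-fold 2 were lower at 9.5 hr and 1 was lower at 15 hr. Except where stated above, the cause of these shifts was not tested. Most members have a mean under 1 FPKM, and at 15 hr a value of 1 FPKM on 1 kb stood for 8.28 to 12.4 reads, depending on the group. The members that bring the lower calls to 28 with no filter all have such a mean. Single values of theirs were higher, as for fbxb-76 with 2.27 FPKM in whole hermaphrodites at 15 hr.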
